A study of Mus musculus with 12 samples.

Results

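Glycam1, Madcam1, Chst4, Fut7, Cr2, Lta, Ltb and Ltbr are genes of high endothelial venules, follicular dendritic cells and the lymphotoxin pathway. They were picked by a list of gene symbols, drawn up with earlier results of these data known, and are 8 of the 54532 genes in the count table. Each was found on a single row and was read in all 12 libraries. In subcutaneous fat, 7 of the 8 had higher normalized levels in every hHKDC1 OE library than in any null library. Ltbr, the receptor, overlapped between the groups. Of all genes that passed the filter on low counts, 12.5% were also higher in this way. The shares are not alike, since Madcam1, Chst4 and Lta failed that filter and Glycam1, Fut7 and Cr2 passed it through hHKDC1 OE. The 8 genes were near 0 counts in liver, apart from Ltb at a low level and Ltbr at a high level.

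The study injected male mice aged 10 weeks through the tail vein with an adeno-associated virus of serotype 8 that carried either full-length human HKDC1 (hHKDC1 OE) or with the null vector (null). Expression was driven by the hepatocyte-specific promoter of thyroxine-binding globulin, so the fat of hHKDC1 OE mice is tissue of an animal with a liver transgene and not a tissue given its own. All groups were kept on a low-fat diet, and liver and subcutaneous fat were collected 16 weeks after injection, with 3 libraries per tissue and vector. The strain is not given in the sources used here. The descriptions of replicates 2 and 3 of hHKDC1 OE in both tissues call these libraries knockouts, whereas their titles and treatment labels give overexpression. They were grouped by title, and results without them are given where they differ. Total counts on genes ranged from 15663540 to 19954971 in fat and from 15496019 to 17935786 in liver. Mouse Hkdc1 had 0 to 8 counts in every library and does not check the human transgene, which was not analysed here. The 8 adipocyte markers summed to between 15560 and 25242 CPM (counts divided by the TMM-normalized library size and scaled alike in every library) in the fat libraries and between 27.2 and 57.4 in the liver libraries. Replicate 2 of hHKDC1 OE fat stood apart from replicates 1 and 3 in the genes described here, and calls that change without it are given beside the results.

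High endothelial venules are the vessels through which lymphocytes leave the blood and enter lymph nodes. Their endothelial cells make sulfated and fucosylated mucins that bind passing lymphocytes, and the mucosal addressin that binds an integrin on gut-homing cells. Lymphotoxin, a cytokine that lymphocytes carry on their surface, signals through its receptor on stromal and endothelial cells to the alternative NF-kB pathway, which is known to keep these venules and the follicular dendritic cells of B cell follicles in their mature state.

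In GRCm38, the build of the count table's coordinates, Glycam1 lies at chr15:103562759-103565081 on the minus strand, Madcam1 at chr10:79664559-79668537 on the plus strand, Chst4 at chr8:110029153-110039740 on the minus strand and Fut7 at chr2:25423267-25426374 on the plus strand. Cr2 lies at chr1:195136811-195176716 on the minus strand and Ltbr at chr6:125306571-125313885 on the minus strand. Ltb, at chr17:35194439-35196320 on the plus strand, and Lta, at chr17:35203165-35205351 on the minus strand, share a locus with Tnf between them. The gap from Ltb to Tnf is 3061 bases and that from Tnf to Lta is 1158 bases. Ltb overlaps the microRNA gene Mir6973a and Lta overlaps Mir6974. How reads that overlap both genes were counted is not given in the sources used here, so the counts of these pairs are uncertain there. Mir6973a had 30 counts over the 3 hHKDC1 OE fat libraries and Mir6974 had 0.

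The RefSeq promoter table of GRCm38.p6 held windows for all 8 genes. The stretches printed here are the 130 bases before the outermost annotated start of 4 of them, shown because these genes were high together in hHKDC1 OE fat and because lymphotoxin signals to NF-kB. Capitals mark matches to GGGNNNNNCC, a fixed-letter reduction of the NF-kB consensus, on either strand, where N is any base and matches may overlap. Glycam1 is shown as a promoter with no match. The stretches are from chr15:103565082-103565211 (minus strand), chr10:79664429-79664558 (plus strand), chr1:195176720-195176849 (minus strand) and chr17:35194309-35194438 (plus strand).
Glycam1: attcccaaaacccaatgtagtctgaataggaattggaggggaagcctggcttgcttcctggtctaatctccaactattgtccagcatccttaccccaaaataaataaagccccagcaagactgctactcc
Madcam1: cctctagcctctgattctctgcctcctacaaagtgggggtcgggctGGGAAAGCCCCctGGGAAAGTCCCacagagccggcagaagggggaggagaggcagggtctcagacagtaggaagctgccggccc
Cr2: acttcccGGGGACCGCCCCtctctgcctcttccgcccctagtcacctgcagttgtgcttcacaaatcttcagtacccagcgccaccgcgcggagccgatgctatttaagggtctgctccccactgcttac
Ltb: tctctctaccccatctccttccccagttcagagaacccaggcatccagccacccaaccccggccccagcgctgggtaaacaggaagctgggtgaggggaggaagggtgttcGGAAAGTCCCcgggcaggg
In the 250 bases before the RefSeq start, 5 of the 8 genes held a match (Madcam1, Cr2, Lta, Ltb and Ltbr), and Glycam1, Chst4 and Fut7 held none. Over all 27025 genes of the promoter table, 48.7% held one, so the letters are common in windows of this length. Madcam1 held adjoining matches whose first bases lay 84 and 71 bases before the start. A match is a description of letters, not of binding.

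The question in fat was which of these genes differed between mice given hHKDC1 and mice given the null vector. Glycam1, a mucin-like adhesion ligand made by high endothelial venules, had 0, 0 and 1 counts in the null fat libraries, against 591, 43 and 348 in those of hHKDC1 OE (replicates 1, 2 and 3, as in the sentences that follow). Normalized for library size with edgeR's TMM factors, its level was 17.2 ± 13.5 CPM with hHKDC1 OE against 0.0178 ± 0.0309 CPM without it (SD, n = 3). The ratio of normalized counts was 871, with a 95% interval of 156 to 34419 that covers counting error only and rests on 1 count in the null group. All 3 hHKDC1 OE libraries were above all 3 null libraries, with replicate 2 far below the other two. In bulk tissue, more cells of a type and more RNA per cell cannot be told apart.

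**Figure D1:**
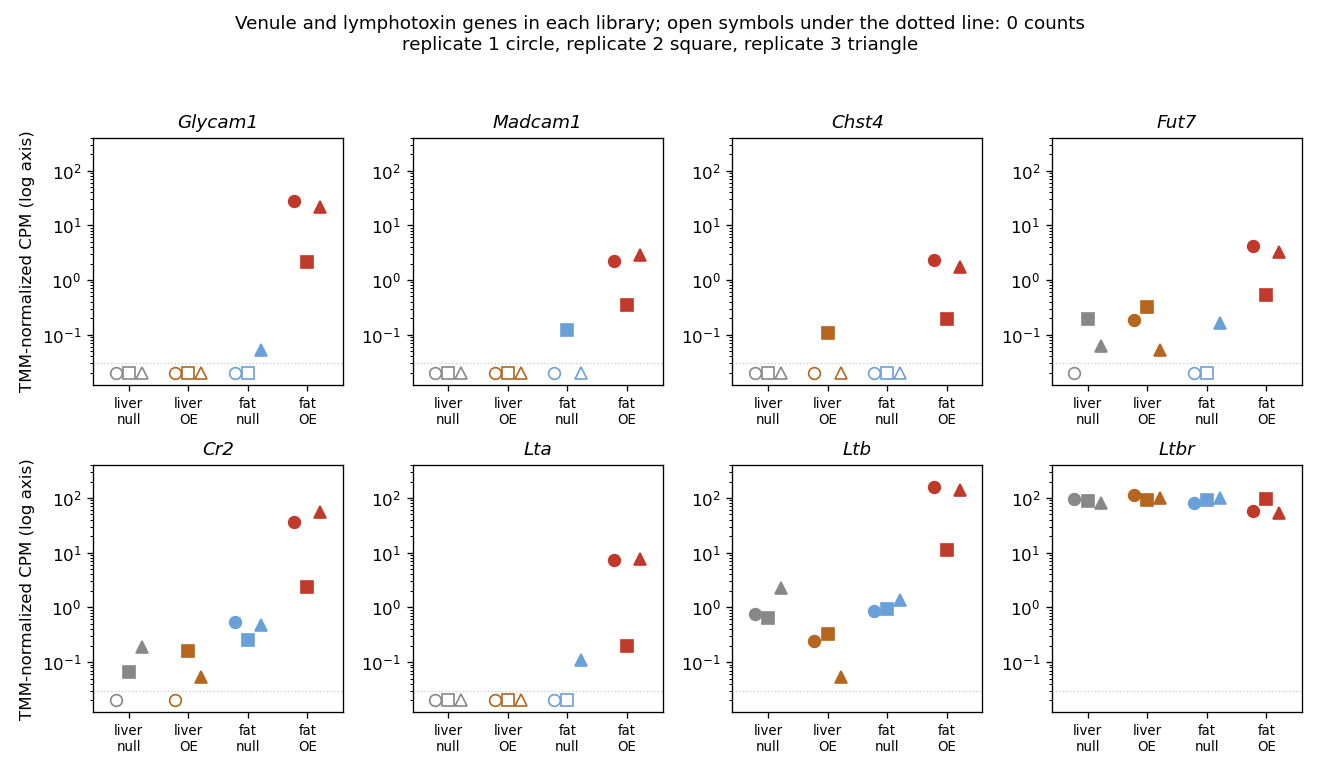
TMM-normalized CPM (log axis, factors set within each tissue) of the 8 genes in every library of the 4 groups, with 1 symbol per library and open symbols for 0 counts. In hHKDC1 OE fat the first 7 genes lie above null fat in all 3 libraries with replicate 2 (square) lowest, while Ltbr overlaps between the groups.

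Madcam1 encodes the mucosal addressin, which binds the integrin of Itga4 and Itgb7. It had 0, 2 and 0 counts in null fat and 46, 7 and 47 counts in hHKDC1 OE fat. That is 1.80 ± 1.31 CPM against 0.0413 ± 0.0716 CPM (SD, n = 3), a ratio of 44.3 with a counting interval of 11.95 to 371. Its groups did not overlap, although 7 counts in replicate 2 is a low number.

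Chst4 encodes the sulfotransferase that adds the sulfate of these mucin ligands, and Fut7 the fucosyltransferase that adds their fucose and also acts in leukocytes. Chst4 was at 0 counts in all 3 null fat libraries and at 50, 4 and 28 counts in hHKDC1 OE fat. Against a floor of 3 counts over the null group, it was at least 24.2-fold higher in hHKDC1 OE fat. Fut7 had 0, 0 and 3 counts in null fat and 90, 11 and 53 counts in hHKDC1 OE fat, a ratio of 45.5 with a counting interval of 15.3 to 223. Both enzymes thus followed the order of Glycam1 among the hHKDC1 OE libraries, highest in replicate 1 and lowest in replicate 2.

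Cr2 encodes complement receptor CD21, carried by mature B cells and by follicular dendritic cells. Its counts were 9, 4 and 9 in null fat, against 759, 49 and 898 with hHKDC1 OE, or 0.426 ± 0.157 CPM against 31.2 ± 26.7 CPM (SD, n = 3). The ratio was 68.7, with a counting interval of 45.3 to 110.0. Cr2 was highest in replicate 3, unlike Glycam1, and its lowest hHKDC1 OE library was above the highest null library.

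Lta and Ltb encode the chains of membrane lymphotoxin, and Lta alone makes the secreted form. Ltb had 14, 15 and 26 counts in null fat and 3375, 228 and 2279 counts in hHKDC1 OE fat, or 1.06 ± 0.291 CPM against 104 ± 80.8 CPM (SD, n = 3). The ratio of 94.8 had a counting interval of 72.7 to 126. Ltb was present at a low level in every null library, and the groups did not overlap. The spread among the hHKDC1 OE libraries (SD 80.8 CPM) was far wider than that among the null libraries (SD 0.291 CPM).

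Lta had 0, 0 and 2 counts in null fat and 155, 4 and 122 counts in hHKDC1 OE fat, a ratio of 125 with a counting interval of 34.2 to 1034. Its replicate 2 of hHKDC1 OE, at 4 counts, was only just above the null libraries. Tnf, the cytokine gene between Ltb and Lta, was at 0.175 ± 0.183 CPM in null and 2.43 ± 1.94 CPM in hHKDC1 OE fat libraries (SD, n = 3). Its groups overlapped, with 0.342 CPM in hHKDC1 OE replicate 2 and 0.365 CPM in null replicate 1, and it did not pass the filter on low counts for all 6 libraries (adjusted p = 0.0205 by edgeR without replicate 2).

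Ltbr, the receptor for membrane lymphotoxin, had 1341, 1468 and 1832 counts in null fat and 1227, 1987 and 850 counts in hHKDC1 OE fat. Its level was 90.2 ± 8.27 CPM against 69.2 ± 24.4 CPM (SD, n = 3), and the groups overlapped because replicate 2 of hHKDC1 OE was level with the null libraries. The difference did not exceed the spread (exact permutation test, two-sided, p = 0.3). Replicates 1 and 3 of hHKDC1 OE, at 58.1 and 52.3 CPM, were below all null libraries.

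For each of the 7 genes whose groups did not overlap, the two-sided exact permutation test of mean CPM gave p = 0.1, the smallest that 3 libraries against 3 allow. Over all 16380 genes tested in fat, 12.5% had hHKDC1 OE libraries all above the null libraries, a share that leaves out Madcam1, Chst4 and Lta. The quasi-likelihood test of edgeR, fitted across all genes, could be made for 5 of the 8, since Madcam1, Chst4 and Lta had too few counts for the filter on low counts. By this test the log2 fold change of hHKDC1 OE over null was 9.35 for Glycam1 (SE 1.47, adjusted p = 0.133), 6.60 for Ltb (SE 1.04, adjusted p = 0.133), 6.17 for Cr2 (SE 1.17, adjusted p = 0.133) and 5.39 for Fut7 (SE 1.27, adjusted p = 0.134). For Ltbr it was -0.38 (SE 0.25, adjusted p = 0.440). None of the 5 passed an adjusted p of 0.05 by edgeR, as for all genes in fat (0% called). At an unadjusted p under 0.05, 4 of the 5 were higher, and 11.3% of all genes were. Nothing is read from this share or from the 12.5%. Glycam1, Fut7 and Cr2 had fewer than 10 counts in every null library and passed the filter through the libraries in which they were high. These p-values measure the spread between the libraries, which come from 3 animals per group.

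The call depended on the test and on 1 library. DESeq2 called 7 of the 8 genes higher (6.51% of all genes with a value), and edgeR without the filter on low counts also called 7 (2.42% of all genes). Without replicate 2 of hHKDC1 OE, edgeR tested all 8 genes and called 7 higher, where 11.4% of all genes were called higher. Nothing is read from 7 of 8 beside that share. Glycam1, Madcam1, Chst4, Fut7, Cr2 and Lta had fewer than 10 counts in every null library and entered the fit through hHKDC1 OE. In that fit Ltb had an adjusted p of 9.4e-05 by edgeR, and Ltbr fell by 0.72 on the log2 scale (adjusted p = 0.0176 by edgeR). Without the libraries described as knockouts, an alternative chosen after seeing the data that leaves a lone hHKDC1 OE library assumed to vary like the null libraries, edgeR called Glycam1, Cr2, Lta and Ltb higher, and 4.34% of all genes.

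**Figure D2:**
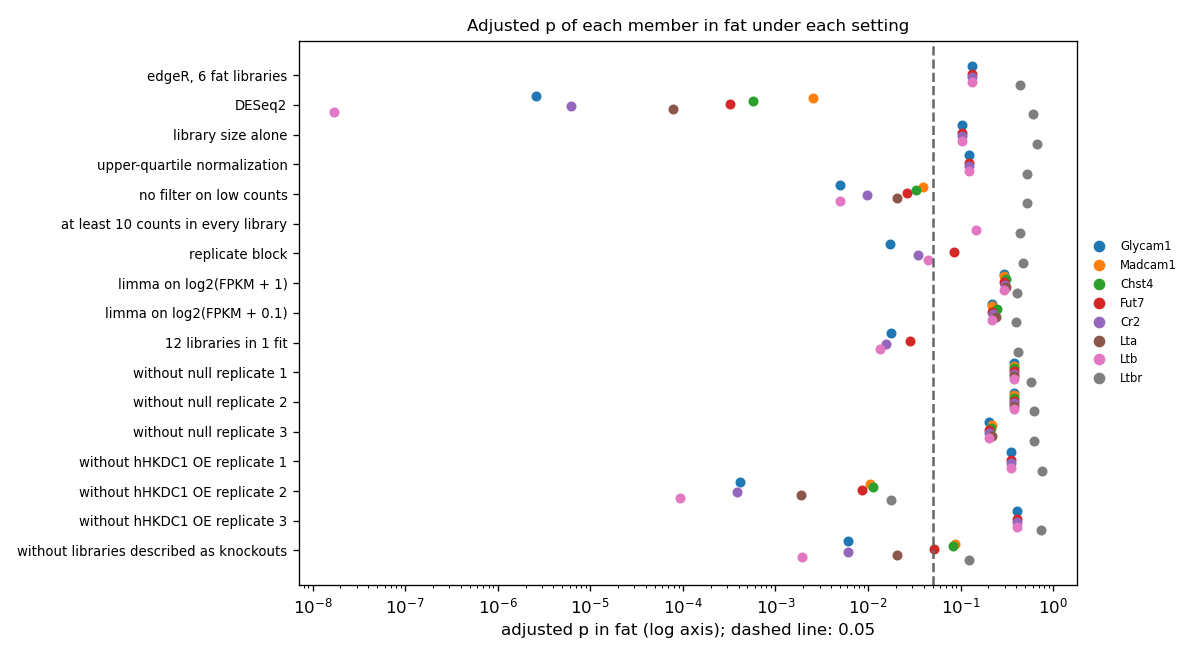
Adjusted p (log axis) of the 8 genes in fat under each setting, 1 point per gene, with a dashed line at 0.05. Points to the left of the line are calls: 7 genes with DESeq2 or without the filter on low counts, all 8 without hHKDC1 OE replicate 2, 4 with the 12 libraries in 1 fit or without the libraries described as knockouts, 3 with the replicate block, and none in the edgeR fit with TMM, the filter and no block.

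Within the hHKDC1 OE group, the 7 genes that were high varied together between libraries. Replicate 1 exceeded replicate 2 by 13.3-fold for Glycam1, 6.37-fold for Madcam1, 12.1-fold for Chst4, 7.93-fold for Fut7, 15.0-fold for Cr2, 37.6-fold for Lta and 14.3-fold for Ltb. For replicate 3 over replicate 2 the folds were 10.2, 8.44, 8.80, 6.06, 23.0, 38.4 and 12.6 in the same gene order. The counting intervals of the 4 venule genes overlapped within each replicate (for example 2.86 to 16.7 for Madcam1 and 9.77 to 18.6 for Glycam1 in replicate 1), so an order among the venule genes was not detectable at this depth. Ltbr went the other way, at 0.598 and 0.538 of replicate 2.

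B cell and T cell markers moved with the same libraries. The summed level of 10 B cell markers was 961, 56.7 and 715 CPM with hHKDC1 OE, against 5.47, 2.91 and 4.81 CPM in null fat, and all 10 had groups that did not overlap. That of 10 T cell markers was 592, 42.5 and 662 CPM in hHKDC1 OE fat and 6.99, 6.95 and 18.2 CPM in null fat, with 8 of the 10 not overlapping. DESeq2 called all 20 higher with the 6 libraries (6.51% of all genes), and edgeR called all 20 without replicate 2 (11.4% of all genes) and none with it, when all 20 had an unadjusted p under 0.05. Nothing is read from these counts. Many of the 20 were near 0 in null fat (0.0535 CPM for Spib and 0.123 CPM for Ms4a1) and entered the fits through the hHKDC1 OE libraries. Replicate 1 exceeded replicate 2 by 17.0-fold for the B cell sum and by 13.9-fold for the T cell sum, and replicate 3 did so by 12.6-fold and 15.6-fold. Set against the B cell sum, Ltb held 16.6%, 19.7% and 19.6% in replicates 1, 2 and 3, and Glycam1 held 2.91%, 3.71% and 2.99%. The shares of Cr2 were 3.74%, 4.23% and 7.72%, those of Lta 0.764%, 0.345% and 1.05%, and those of Chst4 0.246%, 0.345% and 0.241%. Madcam1 held 0.227%, 0.604% and 0.404%, and Fut7 held 0.444%, 0.949% and 0.456%. Set against the T cell sum, Ltb held 27.0%, 26.2% and 21.2% and Cr2 6.07%, 5.64% and 8.34%, so the order of the replicates depended on the scale. Shares in replicate 2 that rest on 4 to 11 counts (Chst4, Lta, Madcam1 and Fut7) carry a large counting error, and no order is read from them. Lymph nodes lie embedded in the subcutaneous fat of mice, and the sources used here do not say whether they were removed. The part that the lymphocyte content of the libraries had in these results was not tested.

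**Figure D3:**
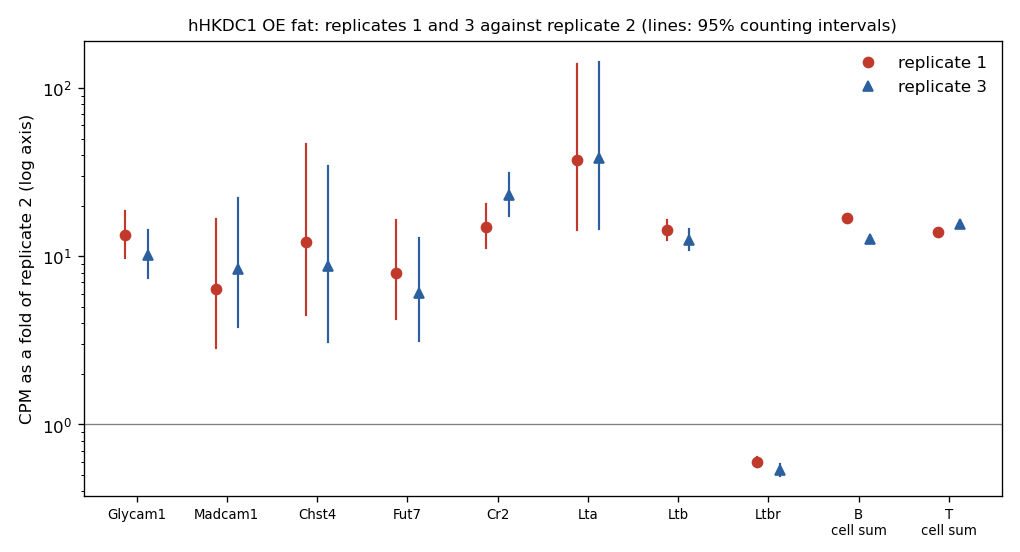
CPM of hHKDC1 OE fat replicates 1 (circles) and 3 (triangles) as a fold of replicate 2 (log axis) for the 8 genes and for the summed B and T cell markers, with 95% counting intervals for the genes. The 7 high genes lie between 6.06 and 38.4, the marker sums between 12.6 and 17.0, and Ltbr under 1.

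Endothelial marker sums overlapped between the groups, for blood endothelium through replicate 2 of hHKDC1 OE. The summed level of 8 blood endothelial markers ranged from 1051 to 1201 CPM in null libraries and from 858 to 1294 CPM in those of hHKDC1 OE, where replicates 1 and 3 were at 861 and 858 CPM, below every null library. None of the 8 was higher and 1, Kdr, was lower without overlap. Without replicate 2 of hHKDC1 OE, edgeR called 1 of them, Vwf, which was lower. For 4 lymphatic endothelial markers the sums ranged from 42.6 to 62.1 CPM and from 43.0 to 49.0 CPM. Glycam1 is also made by mammary epithelium, so milk genes were read beside it. Csn2 and Csn1s1, which encode caseins, were at 0 in all 6 fat libraries. The caseins Csn3 and Csn1s2a were at 0.984 and 0.0615 CPM in hHKDC1 OE replicate 3 and at 0 in the other fat libraries. The epithelial gene Epcam was at 2.26 ± 1.53 CPM against 0.863 ± 0.756 CPM, with overlap, and Elf5, a factor of mammary epithelium, at 0.531 ± 0.494 CPM against 0.0178 ± 0.0309 CPM (SD, n = 3). In the other direction, the keratin genes Krt8 and Krt18 were at 3.55 ± 1.37 CPM against 7.23 ± 3.67 CPM, without overlap, and at 2.603 ± 1.14 CPM against 3.83 ± 2.11 CPM, with overlap (SD, n = 3), and the milk genes Wap and Lalba were at 0 in hHKDC1 OE fat and at 0.0608 ± 0.105 and 0.0790 ± 0.0371 CPM in null fat. The 10 mammary markers summed to 7.66 to 17.1 CPM in null libraries and 5.13 to 13.1 CPM in those of hHKDC1 OE. Hepatocyte markers summed to 3995 to 10088 CPM in the null group and 1971 to 3046 CPM in the other, without overlap. All 10 had a negative log2 fold change, with a median of -1.37. DESeq2 called 3, all lower (7.53% of all genes in either direction), and edgeR called 0 with or without replicate 2 of hHKDC1 OE. Of 8 adipocyte markers, edgeR called 0, and 2 without replicate 2 of hHKDC1 OE, Lep and Cidec, both lower. The part of these hepatocyte and adipocyte transcripts in the results was not tested.

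Genes that work with the venules were mixed. Of 14 tested genes for venule adhesion and ligand synthesis, 7 had a positive and 7 a negative log2 fold change in fat, with a median of 0.08 beside -0.05 for all genes tested, and none was called by edgeR. At an unadjusted p under 0.05, 3 were higher: Fut4, another fucosyltransferase (log2 fold change 3.06, SE 0.72), Icam1, an adhesion molecule for leukocyte integrins (1.59, SE 0.37), and Vcam1, a ligand of the integrin of Itga4 (1.49, SE 0.53). DESeq2 called 3 of the list, all of them higher. Chst2, the partner sulfotransferase of Chst4, was at 0.56 (SE 0.33). Below 0 were Ackr1, the chemokine receptor of venular endothelium, at -0.21 (SE 0.40) and Selp, which encodes P-selectin, at -0.91 (SE 0.64). Without replicate 2 of hHKDC1 OE, edgeR called 5 of the list, with Fut4, Icam1 and Vcam1 higher and Cd34 and Selp lower.

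The lymphocyte side of these pairs was higher in hHKDC1 OE fat by direction, with 9 of 10 tested homing genes above null in every hHKDC1 OE library, a median log2 fold change of 3.25 and no call by edgeR. All 9 had an unadjusted p under 0.05, DESeq2 called 9, and so did edgeR without replicate 2 of hHKDC1 OE. Nothing is read from these counts, since Ccr7 and Cxcr5, at 0.451 and 0.0608 CPM in null fat, entered the fits through hHKDC1 OE. Itgb7 and Itga4, the integrin chains that bind Madcam1, were at 3.33 (SE 0.80) and 1.77 (SE 0.44). Ccr7 and Cxcr5, the receptors that guide lymphocytes to T cell zones and B cell follicles, were at 7.15 (SE 1.16) and 8.22 (SE 1.60). S1pr1, the receptor by which lymphocytes leave and which endothelium also carries, was at -0.21 (SE 0.14).

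Among 11 genes that act with Cr2 or mark follicular dendritic cells, 8 had a positive log2 fold change, the median was 1.11 and none was called by edgeR. At an unadjusted p under 0.05, 6 were higher. DESeq2 called 6 higher, as did edgeR without replicate 2 of hHKDC1 OE, which also called Prnp lower. The largest was Fcer2a, the low-affinity IgE receptor of B cells and follicular dendritic cells (7.91, SE 1.49). At 0.160 CPM in null fat, Fcer2a entered the fit through hHKDC1 OE. Cd81, a membrane partner of Cr2 found on many cell types, was at -0.16 (SE 0.22). Cxcl13, the chemokine of B cell follicles, was at 3.83 (SE 0.81), with 40.6 ± 28.7 CPM in hHKDC1 OE fat against 2.85 ± 1.46 CPM in null fat (SD, n = 3). Mfge8 and Prnp, which follicular dendritic cells share with many other cells, were at -0.10 (SE 0.22) and -0.33 (SE 0.25).

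Among ligands, receptors, adaptors and factors of lymphotoxin and NF-kB signalling other than the members, 16 of 17 tested genes had a positive log2 fold change, with a median of 0.64, and none was called by edgeR. Of these, 10 were higher at an unadjusted p under 0.05, DESeq2 called 8 of the list, and edgeR called 12 higher without replicate 2 of hHKDC1 OE. Relb and Nfkb2, the subunits of the alternative pathway, were at 1.91 (SE 0.44) and 1.40 (SE 0.33), and Map3k14, the kinase that starts it, was at 1.25 (SE 0.40). Rela and Nfkb1, the classical subunits, were at 0.29 (SE 0.14) and 0.64 (SE 0.22), and Chuk, the kinase of both arms, was at 0.00 (SE 0.14). Traf2, an adaptor of these receptors, had the smallest unadjusted p of the list, at 1.06 (SE 0.22). Tnfsf14, the other ligand of Ltbr, was at 2.85 (SE 0.63). Tnfrsf1a and Tnfrsf1b, receptors for secreted lymphotoxin and Tnf, were at -0.15 (SE 0.18) with overlap and at 1.46 (SE 0.35) with groups apart.

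**Figure D4:**
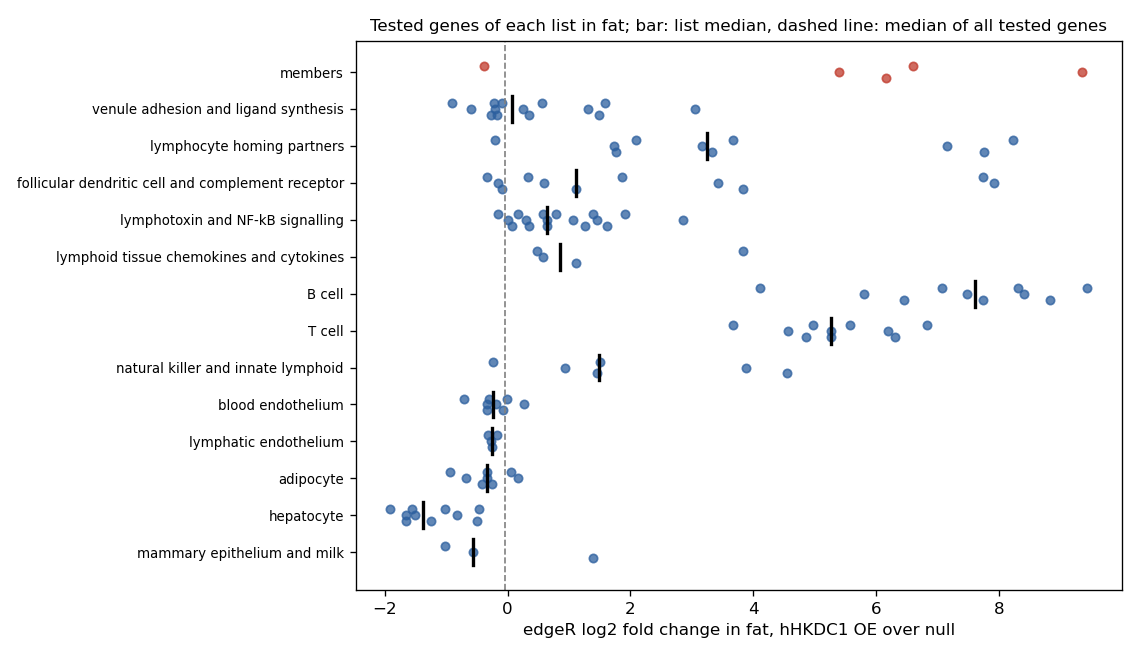
Log2 fold change in fat (hHKDC1 OE over null, edgeR) of every tested gene of each list, with a bar at the list's median and a dashed line at the median of all tested genes, -0.05. The B cell, T cell and homing lists lie to the right with the 4 high tested genes, and most endothelial and adipocyte genes lie a little to the left of the dashed line.

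The genes whose profile over the 6 fat libraries was most like each member's were found by the root mean square difference of log2 CPM, each gene centred on its own mean. As the closest of all genes tested, they lie below the median of all genes by construction. Nothing is read from that gap. For Ltb they were Cd22, Pax5, Spib, Ccr7 and Lef1, at 0.10 to 0.21, where the median of all tested genes was 2.99. For Glycam1 they were Iglc3, H2-Ob, H2-Oa, Siglecg and Fcrl1, at 0.18 to 0.22 (median of all genes 2.54), and for Cr2 they were Trbc1, Tcf7, Tnfrsf13c, Nsg2 and H2-Eb2, at 0.13 to 0.27 (median 2.57). Lta was most like Txk, B3gnt5, Gm11346, Ctla4 and Cd27, and Fut7 most like Gimap1, Fgd3, Cd83 and Slamf7. For Madcam1 (Gimap9, Stmn2, Ifi47, Gpr141b and Ezr) and Chst4 (Cd247, Ccr9, Evl, Gm45552 and Gmip) the measure rests on few counts. Ltbr stood apart, with Mxd4, Rtl8a, 4930402H24Rik, Mprip and Mir22hg at 0.03 to 0.06 (median 0.46).

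Per transcript length, in the deposited FPKM, the order of levels in null fat was Ltbr at 28.4 ± 2.97, then Ltb at 0.519 ± 0.153 (SD, n = 3), with the other 6 genes under 0.04. In hHKDC1 OE fat the mean of Ltb was highest at 47.7 ± 36.8, followed by Ltbr at 21.2 ± 8.53, Glycam1 at 5.62 ± 4.36, Cr2 at 2.68 ± 2.29 and Lta at 2.53 ± 2.10 (SD, n = 3). Madcam1 at 0.879, Fut7 at 0.798 and Chst4 at 0.437 were the lowest. Ltb was above Ltbr in replicates 1 and 3 and below it in replicate 2, at 5.53 against 31.0. Neighbours Cr2 and Lta did not differ beyond their spread, nor did Madcam1 and Fut7, whereas Ltbr was above Glycam1 in all 3 libraries.

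The same question in liver, the tissue with the transgene, concerned mainly Ltb and Ltbr. Glycam1, Madcam1 and Lta had 0 counts in all 6 liver libraries, which allows up to 3 counts in each. Chst4 had 2 counts in 1 hHKDC1 OE library and 0 elsewhere, Fut7 had 4 counts over the null group and 10 over hHKDC1 OE, and Cr2 had 4 in each. Ltb had 12, 10 and 37 counts in null liver and 4, 6 and 1 counts in hHKDC1 OE liver, or 1.23 ± 0.924 CPM against 0.206 ± 0.137 CPM (SD, n = 3). All hHKDC1 OE libraries were thus below all null libraries, at counts where single reads weigh much. The log2 fold change was -2.54 (SE 0.80, adjusted p = 0.552 by edgeR), which was not called. Without null replicate 3, the library with 37 counts, it was -1.73 (adjusted p = 0.698 by edgeR).

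Ltbr in liver had 1533, 1334 and 1282 counts in null and 1829, 1719 and 1855 counts in hHKDC1 OE libraries. Its level was 87.0 ± 7.60 CPM against 101 ± 10.7 CPM (SD, n = 3). The normalized groups overlapped, while the hHKDC1 OE library was above the null library of the same number in 3 of 3 pairs. The log2 fold change of 0.21 (SE 0.14, adjusted p = 0.830 by edgeR, and 0.753 with the pairs as a block) was not called. Of the 2 members tested in liver, edgeR called 0 (0% of all 13351 genes) and DESeq2 called 0. Ltb alone had an unadjusted p under 0.05 by edgeR, as had 6.94% of all genes, and 1 of the 2 had groups apart, against 12.5% of all genes in either direction. T cell markers summed to 16.6 to 26.5 CPM in null liver and 14.5 to 18.9 CPM in hHKDC1 OE liver, and B cell markers to 1.42 to 5.58 CPM and 3.03 to 5.596 CPM. The part of these cells in the level of Ltb in liver was not tested.

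Whether the treatment difference itself differed between the tissues was tested over the 12 libraries, taken as independent. For Ltb the log2 fold change in fat exceeded that in liver by 9.24 (SE 1.40, adjusted p = 0.139 by edgeR). The differences for Cr2, Fut7 and Ltbr were 6.42 (SE 2.43), 4.34 (SE 1.96) and -0.52 (SE 0.30), with adjusted p from 0.298 to 0.489 by edgeR. None was called, as for all genes (0% of 17070), and DESeq2 called 2, Ltb and Cr2 (2.9% of all genes in either direction). At an unadjusted p under 0.05 there were 3 of the 4, and 12.7% of all genes, a share from which nothing is read because Fut7 and Cr2 entered the fit through hHKDC1 OE fat. Without replicate 2 of hHKDC1 OE fat, edgeR called Ltb, Cr2 and Ltbr. Genes at 0 in every liver library have no estimate of this difference.

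In null mice, the level of Ltbr was lower in fat than in liver by edgeR (log2 fold change -0.88, SE 0.14, adjusted p = 0.000861), except that scaling to library size alone turned it to 0.013 (adjusted p = 0.937 by edgeR). In that comparison 30.5% of all genes were called lower in fat. The fit set TMM factors over the null libraries of both tissues together. The CPM given above used factors set within each tissue, where Ltbr was at 90.2 in null fat and 87.0 in null liver, and do not compare the tissues. Ltb in null fat was at -1.14 (SE 0.60, adjusted p = 0.128 by edgeR) relative to null liver. The other 6 genes had too few counts in both tissues of null mice to be tested.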

How the data were processed

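RNA was sequenced from liver and subcutaneous fat, 3 libraries per tissue and vector. The authors aligned reads by STAR 2.5, and HTSeq 0.6.1 gave counts per gene without strand (versions from the submitters' processing notes). The deposited counts are not normalized, and the deposited FPKM values are the authors' counts scaled by gene length and library. The methods name a human reference, whereas the identifiers are mouse genes placed on GRCm38. The authors' table of their own comparison (log2 fold changes and p-values) was not used.

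Counts were tested with edgeR 4.0.16 (glmQLFTest, TMM, filterByExpr, Benjamini-Hochberg over all genes) in R 4.3.3, each tissue apart, and over 12 libraries for the difference between tissues. A call is an adjusted p under 0.05. Alternatives were DESeq2 1.42.0, limma 3.58.1 on log2 FPKM, other scalings and filters, a replicate block, and each library left out. The edgeR test of each comparison, and DESeq2 and limma in fat, were run on simulated counts, with an outcome not given here. Likeness used log2(CPM + 0.5). Intervals of ratios are exact (Clopper-Pearson, 95%) and, like the floor of 3 counts, cover counting error only, since reads carried no molecular identifiers.

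The members, gene lists and tests were chosen with earlier results of these data known. Named genes are the 8 members, in each list the genes with the largest and smallest fold change and the smallest p in fat together with partners of a member, and the 5 genes most like each member. A few of the genes so chosen are not reported here. Ccl19 and Ccl21a are each carried by 2 rows and were left out of list counts. Replicate numbers paired the liver libraries (correlation of deviations 0.101 to 0.213 in all 3 pairs, a pairing seen in the data and not stated in the labels), and not the fat libraries (-0.141 to 0.033). Null fat and null liver of the same number were also paired, at 0.0385 to 0.276, each above the highest value with another number. Whether both tissues came from the same animals is not given in the sources used here. The main fits across tissues took the libraries as independent. No 2 replicates were close enough to be 1 library.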

Additional observations from a re-analysis of the deposited data

Results flagged for a closer look

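Ltb was flagged because its treatment difference went in opposite directions in the tissues: all 3 hHKDC1 OE fat libraries (228 to 3375 counts) were above all null fat libraries (14 to 26 counts), and all 3 hHKDC1 OE liver libraries (1 to 6 counts) were below all null liver libraries (10 to 37 counts). The difference of the log2 fold changes was 9.24 (adjusted p = 0.139 by edgeR, and 7.8e-12 to 0.343 over its alternatives). The liver side rests on few counts.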

How the results depend on the processing

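In fat, where edgeR called 0 of the 5 members tested, DESeq2 called 7, edgeR without a filter on low counts 7, the 12 libraries in 1 fit 4 (4.51% of all genes called higher), and the fit without the libraries described as knockouts (chosen after seeing the data) 4. With the replicate number as a block, edgeR called 3 in fat (0.971% of all genes called higher), although same-numbered fat libraries did not vary together, and the block changed no call in the other comparisons. Leaving out 1 library at a time gave 0 to 8 calls in fat, with 8 only without hHKDC1 OE replicate 2 (18.9% of all genes called in either direction), and 0 to 3 for the difference between tissues, with 3 only without that same library (6.77% of all genes called). For the difference between tissues DESeq2 called 2, no filter 1 (1.53% of all genes), and the fit without the libraries described as knockouts 1 (0.669%). In null mice, scaling to library size alone gave 0 calls in place of 1 and turned the log2 fold change of Ltbr to 0.013. The cause of these changes was not tested. In liver 0 members were called under every alternative run. Of 210 single-gene values under alternatives, 179 kept their direction and side of the threshold, 30 kept their direction and passed it, and 1 turned. The 7 genes high in fat were higher under each alternative that could test them. Madcam1, Chst4 and Lta had 4 to 7 counts in hHKDC1 OE replicate 2 and at most 2 in any null fat library, so depth limits their folds. With a member missing from a fit through low counts, no value is given.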

Other observations

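Natural killer and innate lymphoid genes were higher in part. Of 6 tested in fat, 5 had a positive log2 fold change, with a median of 1.48, and 4 were higher at an unadjusted p under 0.05. Il7r, the interleukin receptor of T cells and innate lymphoid cells, was at 4.54 (SE 0.91) and Nkg7, a gene of cytotoxic granules, at 3.88 (SE 0.91). Il22, a cytokine of innate lymphoid cells, was at 0 in all 12 libraries. None was called by edgeR, and DESeq2 called 2 of the list. Without replicate 2 of hHKDC1 OE, edgeR called 3 of 7 tested, Il7r, Nkg7 and Il23r, all higher.

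Of the lymphoid tissue chemokines and cytokines on a single row, Cxcl12 had 226 ± 15.0 CPM in hHKDC1 OE fat against 162 ± 8.18 CPM in null fat (SD, n = 3), with groups apart and a log2 fold change of 0.48 (SE 0.14). Tnfsf11, a relative of lymphotoxin that acts in lymph node development, had 3.27 ± 3.18 CPM against 0.101 ± 0.131 CPM, with groups that overlapped at 0.244 CPM in hHKDC1 OE replicate 2 and 0.248 CPM in null replicate 2. Without hHKDC1 OE replicate 2, edgeR called 3 of 5 genes of this list, Cxcl13, Tnfsf11 and Tnfsf13b, all higher. Ccl19 and Ccl21a, chemokines of T cell zones and venules, each have 2 rows of near-identical copies that can share or lose reads. On the chromosome 4 row, Ccl19 had 0 counts in all null fat libraries and 16, 0 and 23 counts in hHKDC1 OE fat. The row of Ccl21a on an unplaced scaffold had 20, 1 and 0 counts in null fat and 1299, 15 and 76 counts in hHKDC1 OE fat. In each case replicate 2 was again the lowest.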
